A study of Arabidopsis thaliana with 9 samples.

Results

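The miR167 family comprised 6 of the 427 mature miRNA entries counted in each library, taken by name as every entry that starts with ath-miR167 followed by a letter. They were ath-miR167a-5p, ath-miR167a-3p, ath-miR167b, ath-miR167c-5p, ath-miR167c-3p and ath-miR167d, from 4 host genes. The counts came from leaves of Arabidopsis thaliana at an age of 3 weeks, from plants of the wild type (WT), the se-2 genotype or the chr2 genotype, and each was sequenced as 3 small RNA libraries. The se-2 line is mutant in SERRATE (SE), a zinc finger protein that assists the nuclease DCL1 in cutting primary miRNA transcripts. The chr2 line is mutant in CHR2, also called BRM, a SWI/SNF ATPase that remodels chromatin. The study asked, by its title, how CHR2 and SE act on the making of miRNAs. Age and tissue were the same in all libraries, and the labels name no treatment or transgene. miRNA counts hold no measure of the mutated genes, so the genotypes were taken from the labels alone.

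miR167 is an old plant miRNA family that guides AGO1 to the transcripts of ARF6 and ARF8. These are auxin response factors, transcription factors that switch on auxin-regulated genes, and the pair is best known for flower maturation, stamen growth and adventitious rooting. A miRNA hairpin is cut into a duplex, of which the guide strand is loaded into AGO1 while the passenger strand is mostly degraded. In this family the guide is the -5p strand, which the files name without an arm for miR167b and miR167d, and the -3p strands are passengers.

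The mature sequences show which entries can be told apart by their reads. They are printed 5′ to 3′ with the seed, bases 2 to 8, in capitals, and were read from RefSeq's annotation of assembly TAIR10.1. The first group shares the seed GAAGCUG.
ath-miR167a-5p: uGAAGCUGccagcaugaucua
ath-miR167b: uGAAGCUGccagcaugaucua
ath-miR167d: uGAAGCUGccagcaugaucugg
The guide of miR167c begins 1 base later in the shared sequence, so its seed is shifted.
ath-miR167c-5p: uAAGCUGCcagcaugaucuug
The passenger strands each have a seed of their own.
ath-miR167a-3p: gAUCAUGUucgcaguuucacc
ath-miR167c-3p: uAGGUCAUgcugguaguuucacc
No entry outside the family had any of these seeds.

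The guides of miR167a and miR167b are identical over all 21 bases, whereas miR167d has 22 bases and shares the first 20 with them. The guide of miR167c has an uninterrupted run of 18 bases in common with the others. ath-miR167a-5p lies at chr3:8108090-8108110 on the plus strand in the miRNA gene MIR167a (AT3G22886), with its passenger at chr3:8108172-8108192. ath-miR167b lies at chr3:23406177-23406197 on the plus strand in MIR167b (AT3G63375), and ath-miR167d at chr1:11137556-11137577 on the plus strand in MIR167d (AT1G31173). The miR167c arms lie on the minus strand in MIR167c (AT3G04765), the guide at chr3:1306750-1306770 and the passenger at chr3:1306630-1306652. No other annotated gene overlaps any of the 6 mature sequences.

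The annotated MIR167a precursor is shown because both of its arms were well counted, so that its arm ratio could be tested. It spans 138 bases at chr3:8108072-8108209 on the plus strand, the capitals mark the -5p and the -3p strand, and 61 bases lie between them.
MIR167a: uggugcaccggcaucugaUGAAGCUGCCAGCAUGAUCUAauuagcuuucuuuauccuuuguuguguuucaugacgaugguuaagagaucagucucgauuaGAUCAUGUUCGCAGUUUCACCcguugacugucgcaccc
The annotated precursors of MIR167b, MIR167c and MIR167d span 109, 160 and 377 bases.

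The sites of the family in its known targets were located by ungapped search of coding sequences, with capitals marking the site bases that do not form a Watson-Crick pair with ath-miR167a-5p. The ARF6 site lies at chr1:10686478-10686498 on the minus strand and the ARF8 site at chr5:14633841-14633861 on the plus strand, each in coding exon 13 of 14.
ARF6 (AT1G30330): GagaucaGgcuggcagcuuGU
ARF8 (AT5G37020): uagaucaGgcuggcagcuuGU
Guide positions 1, 2 and 14, counted from the 5′ end of the miRNA, were unpaired at both sites, and position 21 was unpaired in ARF6 as well. Each mismatch was scored as 1 and each G:U pair as 0.5, and the best site in each of 27444 coding genes was scored in the same way. ARF8 had the lowest score for ath-miR167a-5p, with 3 mismatches and no other gene at or under that score, a share of 0.00364% of genes. ARF6, with 4 mismatches, was among 19 genes at or under its score (0.0692%). For ath-miR167c-5p, ARF6 scored 2.5 and ARF8 3.0, and these were the only 2 genes at or under 3.0 (0.00729%). The longer ath-miR167d scored 4.0 at ARF8, with 14 genes at or under that score (0.051%), and 4.5 at ARF6, with 28 genes (0.102%). A matching site is a description of sequence, and transcripts of ARF6 and ARF8 were not measured in these libraries.

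Library sums over all miRNA entries ran from 1280294 to 1588242 counts for WT, from 637283 to 908635 for chr2 and from 130482 to 195415 for se-2. These sums hold miRNA reads alone, so they are not the sequencing depth. Levels are given as CPM, the count scaled to a fixed total of miRNA counts per library, after TMM scaling, which sets libraries to a common average miRNA, so every level and change is relative to the other miRNAs of the library. In whole leaves, fewer cells that make a miRNA and less of it per cell cannot be told apart.

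The guide shared by miR167a and miR167b carried most of the family. ath-miR167a-5p had 18402, 16553 and 19838 counts in the WT libraries, 429, 785 and 769 in se-2, and 6470, 11165 and 5112 in chr2. After scaling these were 13815, 14159 and 14217 CPM in WT, 3126, 4562 and 3930 CPM in se-2, and 8876, 10925 and 9173 CPM in chr2. The 3 genotypes did not overlap, with WT highest, chr2 between and se-2 lowest. ath-miR167b differed from ath-miR167a-5p by at most 13 counts in any library, so the 2 entries are the same measurement of a shared sequence, and what MIR167a and MIR167b each contribute cannot be told apart. Among 368 distinct count profiles ranked by mean CPM within a genotype, ath-miR167a-5p was number 19 in WT, 29 in chr2 and 28 in se-2.

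ath-miR167d, the guide from the chromosome 1 locus, was present at a lower level. It had 1227, 972 and 1245 counts in WT, 32, 33 and 30 in se-2, and 691, 1256 and 416 in chr2. These were 921, 831 and 892 CPM in WT, 233, 192 and 153 CPM in se-2, and 948, 1229 and 746 CPM in chr2. The se-2 libraries lay under all others, while the chr2 libraries spread to both sides of WT. Its rank among the 368 profiles was 57 in WT, 56 in chr2 and 107 in se-2.

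ath-miR167a-3p, the passenger of the MIR167a duplex, had 2418, 1806 and 2243 counts in WT, 26, 19 and 23 in se-2, and 1350, 1685 and 882 in chr2. These were 1815, 1545 and 1607 CPM in WT, 189, 110 and 118 CPM in se-2, and 1852, 1649 and 1583 CPM in chr2. WT and chr2 overlapped, and se-2 lay far under both. As the passenger of a single hairpin with a sequence found in no other entry, it is the member whose reads point to MIR167a alone. Its rank among the profiles was 47 in WT, 52 in chr2 and 125 in se-2.

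Both arms of miR167c were near the limit of detection. ath-miR167c-5p, the guide with the shifted seed, had 6, 7 and 4 counts in WT, 1 in each se-2 library, and 1, 13 and 9 in chr2. ath-miR167c-3p, its passenger, had 4, 9 and 7 counts in WT, 1, 0 and 1 in se-2, and 12, 13 and 12 in chr2. For the passenger, chr2 lay above all other libraries in CPM (16.5, 12.7 and 21.5, against 3.00, 7.70 and 5.02 in WT), and for the guide the genotypes overlapped. A floor of 3 counts was worth 15.3 to 21.9 CPM in the se-2 libraries and 2.15 to 2.57 CPM in WT. Levels of miR167c in se-2 could therefore not be measured with so few counts. This floor and the intervals of shares cover counting error only, since amplified reads without molecular identifiers are not independent molecules.

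**Figure D1:**
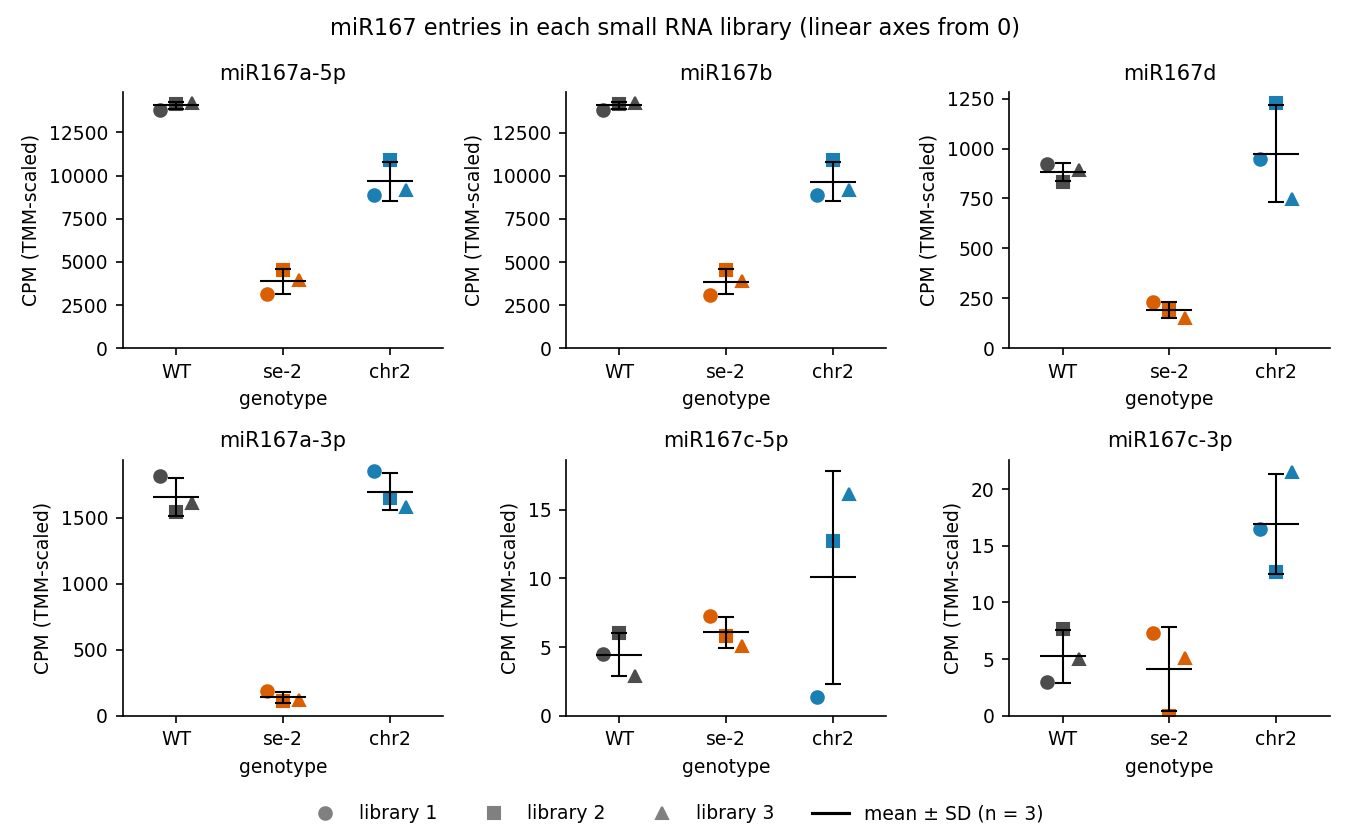
CPM after TMM scaling (vertical, linear from 0) of the 6 miR167 entries in the 3 libraries of each genotype, with symbols for the library numbers and bars for the mean ± SD (n = 3). The miR167a/b guide is highest in WT and lowest in se-2, miR167d and miR167a-3p are lowest in se-2, and the miR167c panels rest on at most 13 counts per library.

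The first comparison, se-2 against WT, asks how the family differs in the line mutant in SE. The miR167a/b and miR167d guides and the miR167a passenger fell relative to other miRNAs. The passenger of miR167a had a larger fold decrease than ath-miR167a-5p, whose counts include whatever MIR167b gave. ath-miR167a-5p fell from 14063 ± 217 to 3873 ± 719 CPM (SD, n = 3 each), a 3.63-fold decrease (log2 -1.86, SE 0.20, edgeR quasi-likelihood adjusted p = 1.9e-09). ath-miR167b gave the same change (log2 -1.87, edgeR adjusted p = 1.9e-09). ath-miR167d fell 4.63-fold, from 882 ± 45.8 to 193 ± 40.0 CPM (log2 -2.21, SE 0.24, edgeR adjusted p = 3.9e-09).

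ath-miR167a-3p fell 12.1-fold, from 1656 ± 142 to 139 ± 43.7 CPM (log2 -3.60, SE 0.25, edgeR adjusted p = 5.1e-13). It had the eleventh lowest change, rank 11 of the 270 entries tested. ath-miR167c-3p had a log2 change of -0.36 with an interval of -2.34 to 1.61 and did not pass the test (edgeR adjusted p = 0.75). Its 2 counts in se-2 and 20 in WT gave a ratio of 0.858 per total count, with an exact 95% counting interval of 0.0973 to 3.53. ath-miR167c-5p was under the filter on low counts and was not tested.

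Of the 5 members tested, edgeR called 4 lower and 0 higher (also 0 higher at an unadjusted p under 0.05, with the DESeq2 test and with limma-voom), where 30.4% of all 270 tested entries were called lower and 42.2% higher. The median log2 change over all tested entries was 0.11. These 4 calls stood for 3 sequences, and ath-miR167c-3p was tested only because its 3 chr2 libraries passed the filter of 12.3 CPM.

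These 4 entries were called lower under each of 5 ways of scaling the libraries, while the size of the decrease varied. One of these took as constant 110 entries with family numbers of 5000 and above or doubtful as miRNAs, and with it the median change of all entries moved by -2.39 on the log2 scale. Under this reference scaling, ath-miR167a-5p was 19.0-fold, ath-miR167d 24.7-fold and ath-miR167a-3p 64.7-fold lower in se-2. ath-miR167c-3p was called lower as well (log2 -2.60, edgeR adjusted p = 0.0051). With the single entry miR8175 left out of the reference, the decreases of the first 3 were 15.4-fold, 19.5-fold and 50.9-fold. DESeq2 size factors and total counts moved the median by -0.36 and 0.14.

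**Figure D2:**
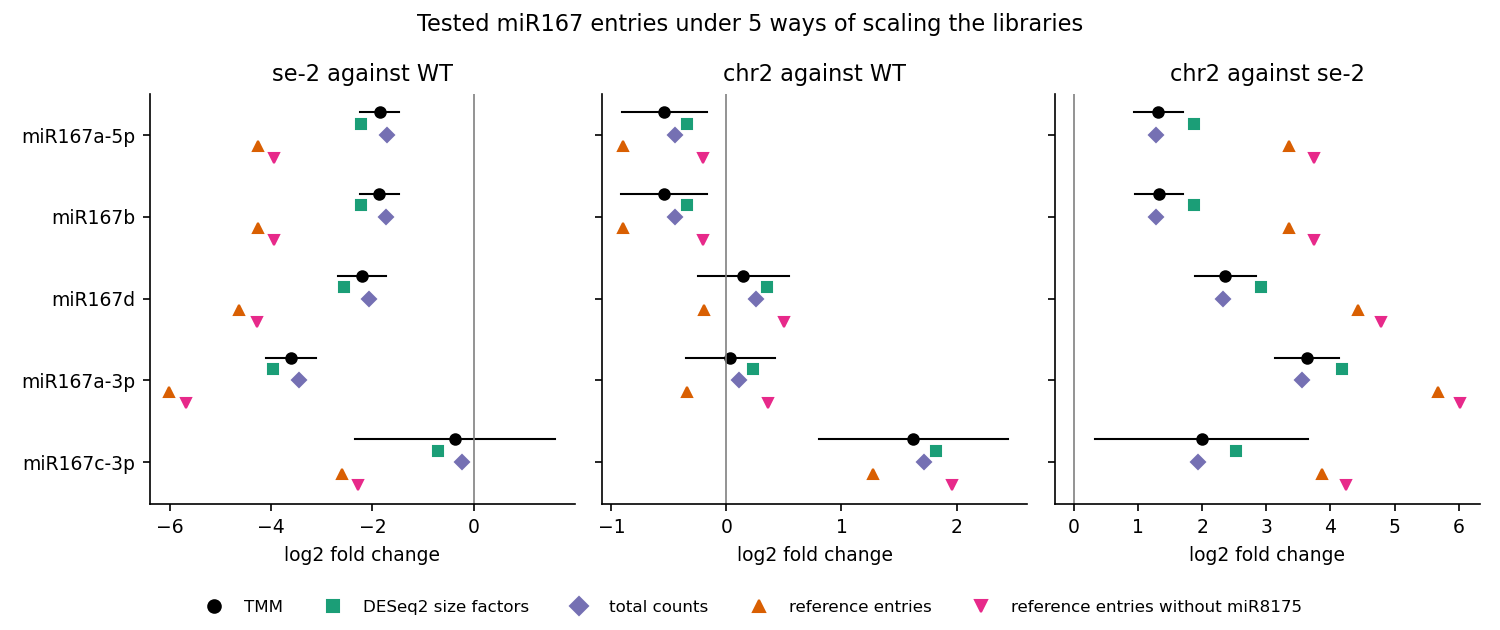
Log2 fold changes (horizontal) of the 5 tested miR167 entries in 3 comparisons, under 5 ways of scaling the libraries, with lines for the 95% interval under TMM. In se-2 against WT the points of miR167a-5p, miR167b, miR167d and miR167a-3p all lie under 0, from -1.72 to -6.02, and in chr2 against WT those of miR167d and miR167a-3p lie on both sides of 0.

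The second comparison, chr2 against WT, asks the same for the line mutant in CHR2. The abundant guide was lower relative to other miRNAs, the guide from MIR167d and the miR167a passenger did not pass the test, and the sparse miR167c passenger had 12 or 13 counts in each chr2 library. ath-miR167a-5p fell from 14063 ± 217 to 9658 ± 1107 CPM (SD, n = 3 each), a 1.46-fold decrease (log2 -0.54, SE 0.19, edgeR adjusted p = 0.029). ath-miR167b gave the same values (log2 -0.54, edgeR adjusted p = 0.029).

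ath-miR167d had 974 ± 242 CPM in chr2 (SD, n = 3), a log2 change of 0.15 with an interval of -0.25 to 0.54 (edgeR adjusted p = 0.64). ath-miR167a-3p had 1694 ± 140 CPM in chr2 (SD, n = 3), a log2 change of 0.03 with an interval of -0.35 to 0.42 (edgeR adjusted p = 0.93). ath-miR167c-3p had 16.9 ± 4.42 CPM in chr2 and 5.24 ± 2.36 CPM in WT (SD, n = 3 each), with a fitted log2 difference of 1.62 (SE 0.42, edgeR adjusted p = 0.0032). It was over the filter on low counts in the 3 chr2 libraries and in 0 WT and 0 se-2 libraries, so it could be tested only because it was high in chr2, and this p is no independent support. With every entry that had a count in the fit, the difference was 1.78, from the same counts, so this is no independent support either. The difference rested on 37 counts in chr2 and 20 in WT, a ratio of 3.28 per total count with an exact 95% counting interval of 1.86 to 5.97. That interval pools the counts of each genotype and leaves out the spread between libraries.

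Among the 5 tested members 2 entries of a single sequence were called lower, beside 19.6% of all tested entries, where 10.4% were called higher. The 1 member called higher was ath-miR167c-3p, selected by the filter as given above, so nothing is read from that count. The decrease of ath-miR167a-5p kept its direction under all 19 alternatives (log2 -0.90 to -0.20) but passed the test in only 6 of them. It did not pass with DESeq2 size factors (log2 -0.35, edgeR adjusted p = 0.17), with total counts (log2 -0.44, edgeR adjusted p = 0.092), or without any of the WT libraries, se-2 library 2, or chr2 library 1 or 3 (log2 -0.54 to -0.28). The median of all entries moved by 0.20 with DESeq2 size factors, by -0.37 with reference scaling, and by 0.33 when the single entry miR8175 was left out of the reference.

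The third comparison, chr2 against se-2, set the mutants side by side and used the same libraries as the others. The 4 members that passed the filter in every library were all called higher in chr2, beside 33% of all tested entries called higher and 47.4% called lower. ath-miR167a-3p was 12.4-fold higher (log2 3.63, SE 0.25, edgeR adjusted p = 3.8e-13). ath-miR167d was 5.13-fold higher (log2 2.36, SE 0.24, edgeR adjusted p = 9.8e-10).

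ath-miR167a-5p was 2.49-fold higher in chr2 than in se-2 (log2 1.32, SE 0.19, edgeR adjusted p = 6.1e-07), and ath-miR167b gave the same change (log2 1.32). The size depended on scaling. For ath-miR167a-5p it was log2 1.28 with total counts, 1.87 with DESeq2 size factors, 3.35 with reference scaling and 3.74 with miR8175 left out of the reference. The median of all entries moved by -0.05, 0.55, 2.02 and 2.39 under these scalings. ath-miR167c-3p, tested only through its chr2 libraries, had a log2 difference of 1.99 (SE 0.85, edgeR adjusted p = 0.034), and with 2 counts in se-2 its ratio of 3.83 had an exact 95% counting interval of 0.987 to 32.8. That call did not hold without se-2 library 2 (edgeR adjusted p = 0.12) or se-2 library 3 (edgeR adjusted p = 0.071).

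The balance of the 2 arms of miR167a does not depend on scaling, since both arms come from the same library. The passenger made up 11.6%, 9.84% and 10.2% of the counts of both arms in WT, 5.71%, 2.36% and 2.90% in se-2, and 17.3%, 13.1% and 14.7% in chr2. The 3 genotypes did not overlap, with chr2 highest and se-2 lowest. Wilson 95% intervals in se-2, which had 19 to 26 passenger counts per library, ran from 3.93% to 8.24% in library 1, from 1.52% to 3.66% in library 2 and from 1.94% to 4.32% in library 3. The WT mean was 10.5 ± 0.947%, the se-2 mean 3.66 ± 1.80% and the chr2 mean 15.0 ± 2.09% (SD over 3 libraries). Each of the 3 comparisons gave an exact two-sided permutation p = 0.1, the smallest that 3 against 3 libraries allow.

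**Figure D3:**
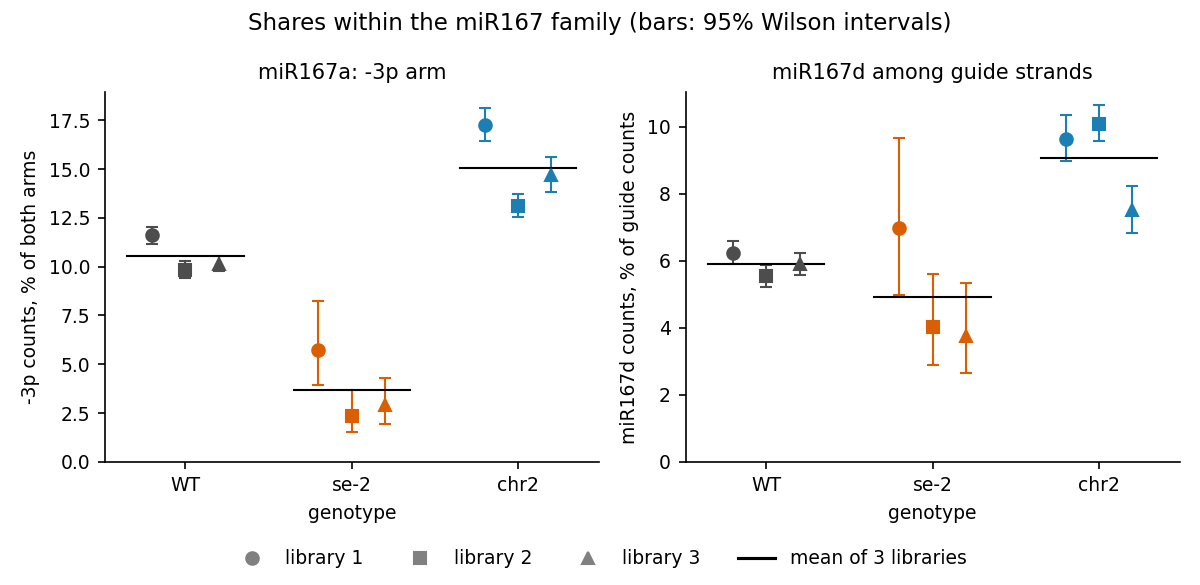
Left, the share of the passenger (-3p) among the counts of both miR167a arms, and right, the share of miR167d among guide counts, in percent (vertical, linear from 0) for the 3 libraries of each genotype, with 95% Wilson intervals as bars and the mean as a line. The passenger share is lowest in se-2 (2.36% to 5.71%) and highest in chr2 (13.1% to 17.3%), and the miR167d share is highest in chr2.

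The arm ratio was also tested with edgeR over 55 hairpins that had enough counts of both arms, with a term for each library. In se-2 the ratio of passenger to guide of miR167a fell 3.31-fold against WT (log2 -1.73, SE 0.29, edgeR adjusted p = 7.8e-08). It had rank 9 of 55 from the lowest, in a comparison where 43.6% of hairpins were called and as many moved towards the -5p arm as towards the -3p arm (12 each). In chr2 against WT the ratio had a log2 change of 0.58 (SE 0.24) and did not pass the test (edgeR adjusted p = 0.080), where 12.7% of hairpins were called. Its rank there was 52 of 55, so it stood near the upper end although no call was made.

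In chr2 against se-2 the ratio of passenger to guide was 4.95-fold higher (log2 2.31, SE 0.29, edgeR adjusted p = 9.1e-13), where 54.5% of hairpins were called. The median log2 change over all 55 hairpins was 0.06, 0.04 and -0.19 in the 3 comparisons. Since the guide counts of miR167a include whatever MIR167b gave, a change in the balance of the loci and a change in the balance of the arms cannot be told apart here. The -3p share of miR167c rested on 20 of 37 counts in WT, 2 of 5 in se-2 and 37 of 60 in chr2. Its libraries overlapped in all 3 comparisons (exact two-sided permutation p = 0.4, 0.5 and 0.3), and its arm ratio had too few counts for the edgeR fit.

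**Figure D4:**
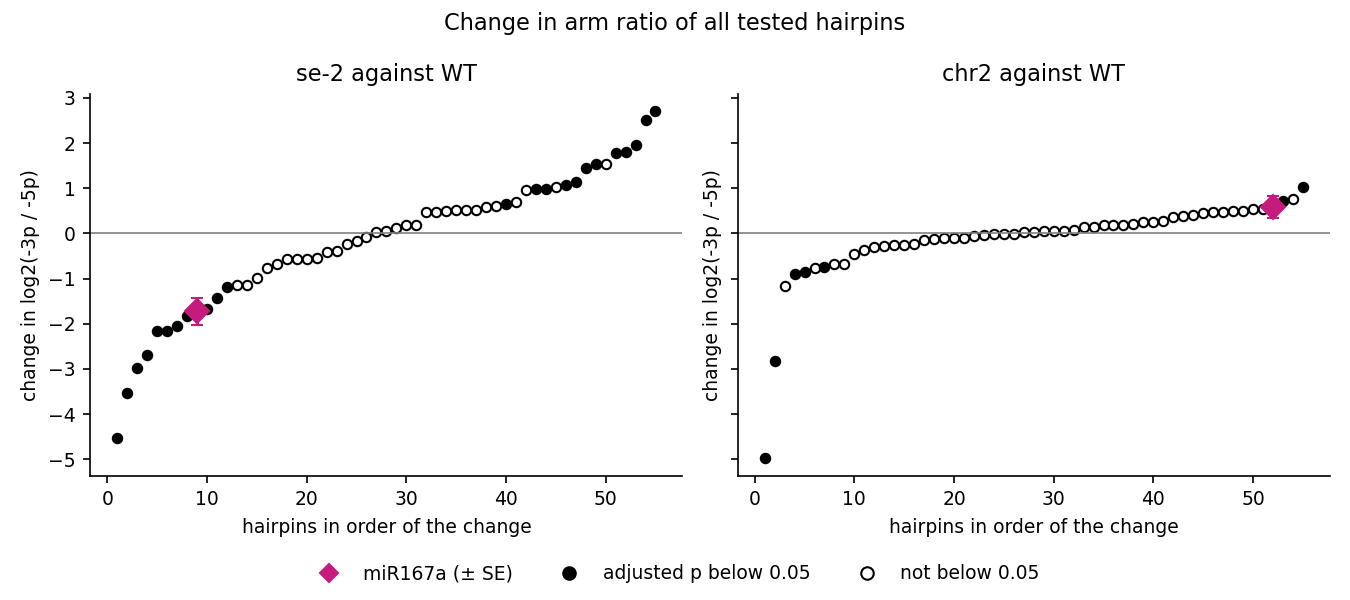
Change in the log2 ratio of -3p to -5p counts (vertical) for 55 hairpins in order of the change (horizontal), with filled points for an adjusted p under 0.05 and a diamond with its SE for miR167a. In se-2 against WT miR167a lies at -1.73 and was called, and in chr2 against WT it lies at 0.58 near the upper end and was not called.

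The mix of guides was compared in the same way. Counting the shared miR167a/b sequence once, miR167d made up 6.24%, 5.54% and 5.90% of guide counts in WT, 6.97%, 4.03% and 3.77% in se-2, and 9.65%, 10.1% and 7.51% in chr2. The chr2 libraries lay above all others, and se-2 overlapped WT. The means of 9.08 ± 1.38% in chr2 and 5.90 ± 0.352% in WT (SD, n = 3 each) gave an exact permutation p = 0.1, and the mean of 4.92 ± 1.78% in se-2 against WT gave an exact permutation p = 0.4.

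The 6 entries together held 2.93%, 2.80% and 2.72% of all miRNA counts in WT, 0.701%, 0.960% and 0.813% in se-2, and 1.77%, 2.78% and 1.81% in chr2. In se-2 the share was under all other libraries (exact two-sided permutation p = 0.1 against WT, the smallest possible). In chr2 a single library, number 2, lay within the WT range while the others lay under it (exact two-sided permutation p = 0.2). The shared guide enters this share under both of its names.

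The entries whose profiles over the 9 libraries were most like those of the guides were taken by the smallest root mean square difference of centred log2 CPM among 260 other entries. For ath-miR167a-5p these were miR403-5p (0.23), the passenger of the miRNA that targets AGO2, miR775 (0.24), which targets a galactosyltransferase transcript, and miR161-1 (0.26), which targets pentatricopeptide repeat transcripts. Mean levels of miR775 were 322, 76.2 and 193 CPM in WT, se-2 and chr2, the same order as for ath-miR167a-5p. For ath-miR167d they were miR162a-3p and miR162b-3p (0.27 each), which target the DCL1 transcript, and miR396b-3p (0.31), the passenger of a miRNA that targets growth-regulating factors. miR162a-3p had 2142, 428 and 1945 CPM, with WT and chr2 close and se-2 low. The distance between the guides ath-miR167a-5p and ath-miR167d was 0.49. The entries above were picked as the closest of 260, so a larger distance between the guides would follow from that choice. Nothing is read from it.

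Other miRNAs of auxin signalling comprised 14 entries of the miR160, miR390, miR393 and miR847 families, of which 12 were tested. In se-2 against WT 6 were called lower and 2 higher, with a median log2 change of -0.40 (over all entries, 30.4% and 42.2% with a median of 0.11). Some of these entries share a mature sequence, so they are not all separate measurements. With a single entry per mature sequence, 9 were tested, 5 called lower and 1 higher. miR160c-3p, the passenger of a miRNA aimed at the repressive factors ARF10, ARF16 and ARF17, fell 2.28-fold (log2 -1.19, edgeR adjusted p = 8.7e-05). miR390a-5p, which triggers the TAS3 siRNAs that restrain ARF2, ARF3 and ARF4, fell 1.43-fold (log2 -0.52, edgeR adjusted p = 0.015), with the same values for miR390b-5p. The 2 called higher, named after their values were seen, were miR160a-5p (log2 1.90) and miR160c-5p (log2 1.78). Both are entries of the guide aimed at those repressive factors, and they are not 2 separate increases. miR160b, a further entry of that guide, did not pass the test (log2 1.16, edgeR adjusted p = 0.077). With reference scaling 9 of the 12 were called lower in se-2 and 0 higher, beside 193 lower and 15 higher among all 270 entries. The increases of miR160a-5p and miR160c-5p therefore did not hold under that scaling.

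miR393a-5p, the guide aimed at the TIR1 and AFB auxin receptors, did not pass the test in se-2 (log2 -0.28, edgeR adjusted p = 0.26). Neither did miR393b-3p, the strand opposite the guide of miR393b (log2 0.20, edgeR adjusted p = 0.38). In chr2 against WT edgeR called 1 of the 12 lower and 0 higher, with a median log2 change of -0.24 (over all entries, 19.6% and 10.4% with a median of -0.15). The entry called lower, also named after its value was seen, was miR393a-3p (log2 -2.35), the passenger of miR393a. At an unadjusted p under 0.05 these counts were 3 and 1, with the DESeq2 test 1 and 1, with limma-voom 3 and 0, with DESeq2 size factors 1 and 3, and with reference scaling 6 and 0. Among entries with a mean of 100 CPM or more, values were -0.38 (miR160c-3p), -0.44 (miR390a-5p), 0.46 (miR393a-5p) and -0.23 (miR393b-3p). None of these passed the test (edgeR adjusted p = 0.17, 0.072, 0.081 and 0.43). In chr2 against se-2 3 were called lower and 5 higher, with a median of 0.08 (over all entries, 47.4% and 33% with a median of -0.51). With a single entry per mature sequence, 9 were tested there, 2 called lower and 5 higher.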

How the data were processed

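The authors deposited whole-number, unnormalized counts for each mature miRNA of 9 libraries. Per the labels' protocols, total RNA of leaves was size-selected on a gel for small RNA, ligated to adapters at both ends and amplified. Per the submitters' processing notes, Bowtie 1.1.2 and the TAIR10 genome were used. How reads were counted, on which miRNA annotation, and what was done with those matching several loci is not stated in these sources. All 427 names matched the RefSeq annotation of TAIR10.1, from which sequences, coordinates and host genes were read.

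Genotypes and replicate numbers were taken from the titles. The labels do not say whether the libraries came from separate plants, so p-values measure the spread between these libraries. No library copied another, since chi-square over its degrees of freedom was 2.85 to 95.5 for pairs within a genotype. In 43 entries every library had 0 counts, and keeping 1 of each set of identical profiles left 368. The test was edgeR 4.0.16 (robust quasi-likelihood, limma 3.58.1, R 4.3.3) with TMM, filterByExpr (270 entries left), genotype as the only term, all 9 libraries in a single fit and Benjamini-Hochberg adjustment over all tested entries with a limit of 0.05. Intervals of log2 changes are 1.96 SE to either side. For arm ratios, hairpins needed 10 counts over both arms in each library (55 of 83 hairpins). Shares were compared by an exact permutation test (SciPy 1.17.1). Alternatives covered scaling, DESeq2 1.42.0, limma-voom, no filter, fits of only the genotypes compared, a replicate block, shared sequences and each library left out.

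The text names all 6 members, for each tested guide the 3 entries of most similar profile (mean of 10 CPM or more), and auxin entries tested with a mean of 100 CPM or more. Some auxin entries under that mean were named after their values were seen. The members, the lists and the tests were chosen with earlier results of these data known.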

Additional observations from a re-analysis of the deposited data

How the results depend on the processing

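Over 30 results and 457 alternatives, 407 were counted as the same. They kept their direction and side of the limit, or moved by less than the replicate spread. For numbers of members called, a similar total was enough, whichever members were called. The number of members called in chr2 against WT was 3, and it was 1 (ath-miR167c-3p) with DESeq2 size factors, total counts, reference scaling without miR8175, the DESeq2 test, no filter, only the 2 genotypes compared, a single entry per mature sequence, and identical rows kept (chosen after seeing the data). It ranged from 1 to 3 with a library left out, and was 1 without any single WT library, se-2 library 2 or chr2 library 3. Without chr2 library 1 it was 2, with 0 members called lower and 2 higher. The cause was not tested. With a single entry per mature sequence, also chosen after seeing the data for shares, the family share in se-2 minus WT was -1.83 instead of -1.99 percentage points; this counts every shared sequence once in the family and in the total, and the share was 3.16% in WT and 1.33% in se-2. Signs changed for values that did not pass the edgeR test under TMM. ath-miR167c-3p in se-2 against WT was 0.25 with limma-voom and -0.89 to 0.23 with a library left out. It was called lower with reference scaling (log2 -2.60) and when miR8175 was left out of the reference (log2 -2.29). In chr2 against WT ath-miR167a-3p was -0.34 with reference scaling and -0.015 to 0.30 with a library left out, and ath-miR167d was -0.20 with reference scaling. Arm ratio calls held under all 12 alternatives (log2 -2.11 to -1.47 in se-2 against WT). Same-numbered libraries did not deviate together (correlations of -0.21 to 0.08). The labels do not say what the numbers mark, and these correlations cannot show whether they paired samples. With the replicate block 4, 3 and 5 members were called in the 3 comparisons, as without it. Low counts limit both miR167c arms.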
